A study of Mus musculus with 10 samples.

Results

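Chromatin accessibility at 7 chemokine genes (Ccl2, Ccl7, Ccl5, Cxcl1, Cxcl5, Cxcl10 and Cxcl12) was described in the mouse osteoblast line MC3T3-E1. The assay was ATAC-seq, which inserts sequencing adapters with a transposase wherever DNA is exposed, so that the tag density reads accessibility. The members were all windows (peaks of fixed length) of the authors' 4 peak lists whose nearest gene was 1 of the 7, which gave 52 of the 97788 listed windows. Once windows overlapping by at least 63 bp were merged, these made 18 of 35534 regions, 8 at Ccl2, 3 at Cxcl12, 2 each at Ccl7 and Cxcl1, and 1 each at Ccl5, Cxcl5 and Cxcl10. The 4 groups of 2 libraries were untreated cells (none), cells given the inflammatory cytokine TNFa at 10 ng/ml, cells given bone morphogenetic protein BMP4 at 10 ng/ml, and cells given both. The sample labels give 3 h for either factor, whereas the treatment protocol has TNFa added 30 min before a 3 h stimulation with BMP4, in 2.5% serum for every group. The length of the TNFa treatment is therefore uncertain. The titles of the TNFa libraries alone carry the term p65, which the labels do not explain. A further 2 libraries of sonicated DNA from the same cells were the authors' background.

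Chemokines are small secreted proteins that guide the movement of blood cells through receptors on those cells. TNF binding to its receptor frees the transcription factor NF-kB, whose p65 subunit enters the nucleus and switches on many chemokine genes. In bone, chemokines made by osteoblasts recruit monocytes, the precursors of osteoclasts, and Cxcl12 holds blood stem and progenitor cells in the marrow.

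Promoter sequence was at hand for Cxcl1, Cxcl10 and Cxcl12 (3 of the 7). It is shown because no window of any list overlapped it, so that the listed windows of these genes all lay away from the start. The 250 bases before the RefSeq start are printed 5′ to 3′ on the gene's strand (RefSeq, GRCm38.p6). They lie at chr5:90890995-90891244 (plus strand) for Cxcl1, chr5:92348890-92349139 (minus strand) for Cxcl10 and chr6:117168285-117168534 (plus strand) for Cxcl12. Capitals mark matches, on either strand, to the NF-kB (kB) consensus, to the AP-1 motif TGANTCA or to the interferon response core GAAANNGAA.
Cxcl1: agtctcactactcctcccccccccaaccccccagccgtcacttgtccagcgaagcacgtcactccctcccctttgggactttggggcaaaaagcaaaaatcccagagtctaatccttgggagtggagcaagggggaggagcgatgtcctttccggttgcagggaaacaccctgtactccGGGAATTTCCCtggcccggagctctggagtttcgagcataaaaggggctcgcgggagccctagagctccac
Cxcl10: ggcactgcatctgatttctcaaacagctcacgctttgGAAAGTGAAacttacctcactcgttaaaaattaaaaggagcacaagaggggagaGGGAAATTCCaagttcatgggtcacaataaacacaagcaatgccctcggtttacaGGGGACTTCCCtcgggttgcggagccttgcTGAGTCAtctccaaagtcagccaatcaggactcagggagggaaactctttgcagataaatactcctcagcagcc
Cxcl12: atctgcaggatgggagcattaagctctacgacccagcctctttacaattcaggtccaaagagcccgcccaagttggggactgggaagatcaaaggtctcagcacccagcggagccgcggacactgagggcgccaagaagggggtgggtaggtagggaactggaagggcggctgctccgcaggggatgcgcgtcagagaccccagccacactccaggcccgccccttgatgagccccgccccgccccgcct

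In Cxcl1 the kB consensus matched from 71 bases before the start, with an overlapping match on the other strand. In Cxcl10 it matched from 159 bases and, in overlapping positions, from 104 and 103 bases before the start, the AP-1 motif from 74 bases and the interferon core from 213 bases. No match was found in the Cxcl12 stretch. Of 32851 promoters in the table, 7.25% held the kB consensus in the same 250 bases, 6.75% the AP-1 motif and 7.13% the interferon core. A match describes letters only.

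Total tags ran from 16.5 M to 30.1 M per library, with 16.5 M and 19.7 M in the TNFa libraries, and 3.5% to 5.64% of them lay in the windows compared. All 4 libraries with TNFa, alone or with BMP4, held fewer total tags than any of the 4 without it. The part of this depth difference in the TNFa comparisons was not tested. The background libraries held 49.5 M and 55.9 M. Across the 52 member windows the recovered tag counts ran from 3 to 184 per library, against 0 to 24 in a background library. Relative to library totals, both libraries of the group exceeded both background libraries in 51 of the 52. This was largely set in advance, since the authors called the windows against these background libraries. Libraries did not sort by group: over the tested windows, log2 levels of untreated replicate 2 and BMP4 replicate 2 correlated at 0.953, and those of BMP4 replicate 1 and 2 at 0.393. Separate cultures are not stated in the labels, so every p-value measures only how far these libraries spread, which may be technical. Of 12 osteoblast markers 11 had a window, including Runx2, Sp7 and Col1a1, and Alpl had none. Of 12 blood and macrophage markers 4 had a window (Spi1, Csf1r, Cd14 and Fcer1g). Ptprc, Itgam, Cd68, Adgre1, Lyz2, Tyrobp, Cd79a and Cd3e had none. The 2 tested windows of the blood and macrophage markers summed to 20.3 to 34.3 CPM with TNFa and 24.9 to 31.0 with both factors. The sum was 22 to 36.0 without treatment and 27.3 to 79.0 with BMP4. Of 6 endothelium markers 4 had a window (Kdr and Tie1 had none), and their 5 tested windows summed to 427 to 538 CPM without treatment, 355 to 417 with TNFa, 567 to 707 with BMP4 and 505 to 619 with both. All 5 were above 0 for both factors against TNFa, with a median log2 fold change of 0.81, and for BMP4 against none, with a median of 0.585. For TNFa against none 0 of the 5 were above 0 (median -0.43). In each of these comparisons 0 passed in limma (0 at an unadjusted p under 0.05). Of 6 adipocyte markers 3 had a window, and 4 tested windows summed to 202 to 208 CPM without treatment, 179 to 184 with TNFa, 223 to 227 with BMP4 and 181 to 204 with both. The part of other cell types in the chemokine values was not tested.

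The lists of the groups that received TNFa held more chemokine windows than the other 2. There were 17 in the TNFa list and 14 in that of both factors, against 12 in the untreated and 9 in the BMP4 list, although the whole lists ran the other way (23288 and 23745 against 26230 and 24525 windows). Of the 18 member regions, 7 were in all 4 lists. A further 6 (33.3%) were found with TNFa, alone or with BMP4, and in neither list without it, against 14.8% of all 35534 regions. Of these 6, 3 were in both TNFa lists (16.7%, against 4.18% of all regions) and 3 in the TNFa list alone. No member region was confined to the untreated list, the BMP4 list or that pair, a class that held 21.1% of all regions. Under a stricter limit on the authors' adjusted p against background (0.001), 12 member regions were left. Of these, 3 were in both TNFa lists only (7.17% of all 18728 regions left). A further 1 was in the TNFa list alone (5.14%) and 1 in the untreated list alone (11.2%). The 3 were not the same regions as before. Ccl2 19.0 kb upstream stayed, while Ccl2 28.6 kb upstream and Ccl7 2.5 kb downstream fell out. Ccl2 2.5 kb upstream and Cxcl5 entered because their windows in lists without TNFa missed the limit. The lists were called by the authors on pooled replicates, so these counts have no replicate error and no test. The libraries with TNFa also held fewer total tags than those without it, and the part of depth in these counts was not tested. Merging windows that touched by 1 bp, or that lay within 500 bp, left 3 member regions in both TNFa lists only (3.84% and 2.93% of all regions). A window absent from a list has no tag values there, so its level in that group was not measured.

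**Figure D1:**
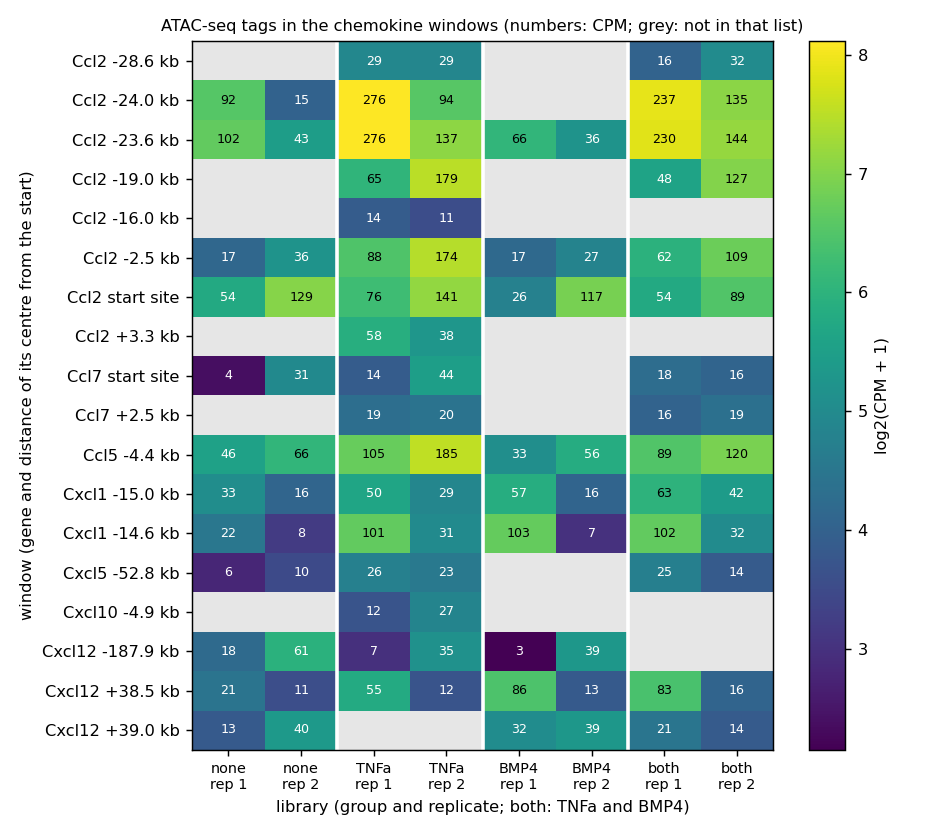
Tags in the 18 chemokine regions (rows, labelled by gene and distance of the window's centre from the gene's start) in the 8 libraries (columns); numbers are CPM, colour is log2(CPM + 1), and grey means that the authors' list of that group has no window there. Grey cells fall in the untreated and BMP4 columns for the 6 regions of the TNFa lists only, 5 of them at Ccl2 and Ccl7.

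Ccl2, which attracts monocytes through the receptor Ccr2, had the most windows, spread from 28.6 kb before to 3.3 kb after its start on chromosome 11 (mm10). Of its 8 regions 3 were in all 4 lists and 4 in TNFa lists only. The 4 lay at 28.6 kb (chr11:82006905-82007029), 19.0 kb (chr11:82016533-82016663) and 16 kb (chr11:82019512-82019636) upstream and 3.3 kb downstream (chr11:82038786-82038910), all intergenic in the authors' annotation. Levels are given in CPM, tags-per-million of the tags in the tested windows after TMM scaling. The window at 19.0 kb was the highest of the 4, with 65.2 and 179 CPM in TNFa replicates 1 and 2 and 47.9 and 127 with both factors. At 28.6 kb the values were 29.2 and 28.7 CPM with TNFa and 15.5 and 31.7 with both. The windows at 16 kb (13.7 and 10.8 CPM) and 3.3 kb (58.4 and 38.2 CPM) were listed with TNFa alone. In the authors' deposited table, the window at 16 kb was the closest of the 4 to their limit, with an adjusted p of 0.0287 against background.

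**Figure D2:**
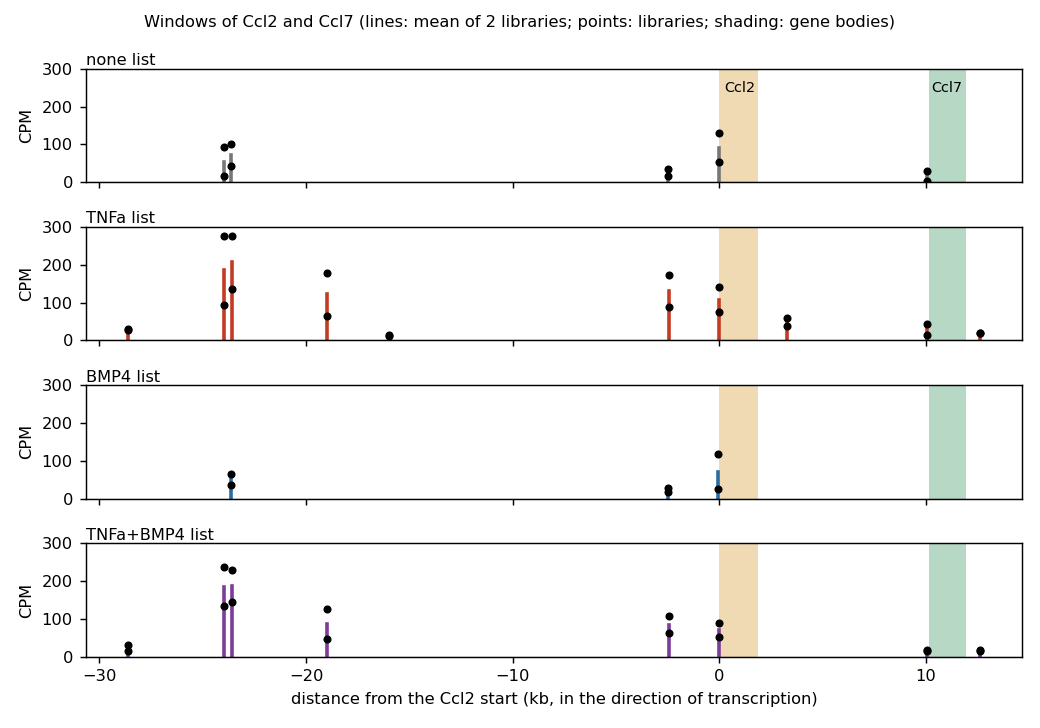
Windows of Ccl2 and Ccl7 in the 4 lists; the horizontal axis is the distance from the Ccl2 start in kb, the vertical axis is CPM, lines are means of 2 libraries and points the libraries, and shading marks the gene bodies. The TNFa list has 10 windows here, that of both factors 8, the untreated list 5 and the BMP4 list 3.

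A distal pair of neighbouring Ccl2 windows, 23.6 kb (chr11:82011882-82012055) and 24 kb (chr11:82011560-82011689) upstream, had the highest means of the gene in both groups given TNFa. At 23.6 kb the untreated libraries held 102 and 43.3 CPM and the BMP4 libraries 66.4 and 36.2. With TNFa the values were 276 and 137 CPM, and with both factors 230 and 144. All 4 libraries with TNFa lay above all 4 without it. The log2 fold change was 1.52 ± 0.66 (SE, n = 2 per group) for TNFa against none and 1.84 ± 0.66 for both factors against BMP4 (limma, adjusted p = 1.00 and 0.989), the first 0.90 without untreated replicate 2. The window at 24 kb was absent from the BMP4 list. It held 92.2 and 15.4 CPM untreated, 276 and 94.4 with TNFa and 237 and 135 with both, so untreated replicate 1 (92.2) lay close to TNFa replicate 2 (94.4). In a fit of the windows found in both the TNFa and untreated lists, chosen after the data were seen, its log2 fold change was 2.01 ± 0.90 (limma, adjusted p = 1.00).

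Nearer the gene, the intergenic window 2.5 kb upstream (chr11:82033023-82033192) had, for TNFa against none, the largest difference of the 7 windows found in all 4 lists. It held 16.8 and 35.9 CPM untreated, 17.2 and 27.3 with BMP4, 87.5 and 174 with TNFa and 62 and 109 with both. Here too the lowest library with TNFa (62) lay above the highest without (35.9). The log2 fold change was 2.23 ± 0.63 for TNFa against none and 1.82 ± 0.63 for both factors against BMP4 (limma, adjusted p = 1.00 and 0.989). Of all 14416 tested windows, 0.0416% were as high or higher for TNFa against none, and 0.402% for both factors against BMP4. The window was named as the highest of the 7 for TNFa against none, so its share there is a rank and not a p-value. For the Ccl2 start the share for TNFa against none was 28.4%.

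The window over the Ccl2 start itself (chr11:82035474-82035614, promoter in the authors' annotation) differed little between the groups. It held 53.6 and 129 CPM untreated, 75.5 and 141 under TNFa, 26.3 and 117 under BMP4 and 53.6 and 89.5 under both. The groups overlapped, and the log2 fold change for TNFa was 0.30 ± 0.80 against none and 0.30 ± 0.80 on top of BMP4 (limma, adjusted p = 1.00 and 0.989). The sign of the first changed without untreated replicate 1 (-0.28) and without TNFa replicate 2 (-0.12). For the second it changed without BMP4 replicate 1 (-0.74) and without replicate 2 of the combined treatment (-0.06).

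Ccl7, whose product also binds Ccr2 and which lies next to Ccl2, had a promoter window and one at its 3′ end. The promoter window (chr11:82045577-82045701) was listed in every group but BMP4, at the same coordinates. It held 4.19 and 30.8 CPM untreated, 13.7 and 44.2 with TNFa and 18.3 and 15.9 with both, and the groups overlapped. In the fit of the TNFa and untreated lists its log2 fold change was 0.91 ± 0.84 (limma, adjusted p = 1.00). The window at the transcript end, 2.5 kb after the start (chr11:82048124-82048253), was in both TNFa lists only, at 18.9 and 20.3 CPM with TNFa and 15.5 and 19.3 with both. Between these 2 lists the log2 fold change of both factors against TNFa was -0.16 ± 0.53 (limma, adjusted p = 1.00).

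Ccl5, which attracts T cells and monocytes, had a single region 4.4 kb upstream (chr11:83534801-83534962), present in all 4 lists and within the RefSeq gene model Gm32650. Untreated libraries held 46.1 and 66.0 CPM, BMP4 libraries 33.2 and 55.9, TNFa libraries 105 and 185, and those of both factors 88.8 and 120. The lowest library with TNFa (88.8) lay above the highest without (66.0). The log2 fold change was 1.30 ± 0.57 for TNFa against none and 1.22 ± 0.57 for both factors against BMP4 (limma, adjusted p = 1.00 and 0.989). No window was listed at the Ccl5 start.

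All 4 libraries with TNFa lay above all 4 without at the windows of Ccl2 23.6 kb and 2.5 kb and of Ccl5, 3 of the 7 tested, against 1.82% of the 14416 tested windows (2.62% lay below in all 4). At these 3 sites the authors' windows also differed in position by TNFa state. The windows of the 2 TNFa lists started within 1 bp of each other, and at least 46, 45 and 34 bp from those of the other 2 lists, so the bases counted were not the same. Of all tested windows, 347 had such a difference of at least 30 bp, and all 4 libraries with TNFa lay above those without in 3.75% of them and below in 6.05%. The part of the shift in the values of the 3 windows was not tested. In bulk libraries, a site open in more cells and a site open for longer in each cell cannot be told apart.

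Cxcl1 and Cxcl5 encode neutrophil attractants that act through Cxcr2. Cxcl1 had a pair of intergenic windows 15 kb (chr5:90876171-90876321) and 14.6 kb (chr5:90876584-90876757) upstream, in all 4 lists. At 14.6 kb the values were 21.8 and 8.07 CPM untreated, 101.3 and 31.1 under TNFa, 103 and 6.99 under BMP4 and 102 and 31.7 under both. BMP4 replicate 1 was as high as replicate 1 of either TNFa group, and BMP4 replicate 2 was the lowest library. The log2 fold change was 1.91 ± 1.16 for TNFa against none and 0.94 ± 1.16 for both factors against BMP4 (limma, adjusted p = 1.00 and 0.989). The former was 1.10 without TNFa replicate 1, and the latter -0.81 without BMP4 replicate 2. At 15 kb the values were 32.7 and 16.1 CPM untreated, 49.8 and 28.7 under TNFa, 57.2 and 15.9 under BMP4 and 63.4 and 41.9 under both. The groups overlapped, at log2 fold changes of 0.67 ± 0.70 and 0.72 ± 0.70 (limma, adjusted p = 1.00 and 0.989), the second -0.13 without BMP4 replicate 2. The background libraries held 0 or 1 tags at 14.6 kb in every list.

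Cxcl5 had 1 region, 52.8 kb upstream (chr5:90706458-90706615), in every list but that of BMP4. It held 5.86 and 10.3 CPM untreated (7 and 14 tags), 25.7 and 22.7 with TNFa and 25.4 and 13.6 with both. All 4 libraries with TNFa lay above both untreated ones. In the fit of the TNFa and untreated lists the log2 fold change was 1.41 ± 0.65 (limma, adjusted p = 1.00). The TNFa window started 33 bp from the untreated one.

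Cxcl10, an interferon-induced attractant of T cells through Cxcr3, had 1 window, listed in the TNFa group alone. It lay 4.9 kb upstream (chr5:92353749-92353873), in intron 2 of 10 of the neighbouring gene Art3, and held 12 and 27.5 CPM, from 7 and 23 tags. The deeper background libraries held 7 and 8 tags in it. Per 10 M total tags the TNFa libraries held 4.25 and 11.65, and the background libraries 1.41 and 1.43. In the authors' deposited table its adjusted p against background was 0.0193.

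Cxcl12, the marrow-retention chemokine that binds Cxcr4, had 3 intergenic regions and none in TNFa lists only. The region 187.9 kb upstream (chr6:116980599-116980727) was missing from the list of both factors, and that 39.0 kb downstream (chr6:117207469-117207593) from the TNFa list. The first held 17.6 and 60.9 CPM untreated, 6.86 and 34.6 with TNFa and 3.43 and 38.8 with BMP4, at a log2 fold change for TNFa of -0.96 ± 0.80 in the fit of the TNFa and untreated lists (limma, adjusted p = 1.00). The second held 13.4 and 39.6 CPM untreated, 32.0 and 38.8 with BMP4 and 21.1 and 13.6 with both. Its log2 fold change for both factors against BMP4 was -0.95 ± 0.68 in a fit of those 2 lists (limma, adjusted p = 1.00). In both regions the point estimate was lower with TNFa by more than its standard error, and neither passed the test. At 187.9 kb the libraries overlapped, and BMP4 against none was lower too, at -1.28 ± 1.06 in a fit of those 2 lists, which did not pass in limma. At 39.0 kb both libraries of the combined treatment lay below both BMP4 libraries, but between the untreated ones.

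The Cxcl12 window in all 4 lists, 38.5 kb downstream of the start (chr6:117207008-117207139), held 20.9 and 11 CPM untreated, 54.9 and 11.9 under TNFa, 85.8 and 13.4 under BMP4 and 83.2 and 15.9 under both. Replicate 2 was low in every group, and the 3 high libraries were replicate 1 of the treated groups. The log2 fold change was 0.70 ± 1.07 for TNFa against none, 0.09 ± 1.07 for both factors against BMP4 and 1.09 ± 1.07 for BMP4 against none (limma, adjusted p = 1.00, 0.997 and 1.00). Each of these changed sign when 1 library was left out: the first without TNFa replicate 1 (-0.31), the second without BMP4 replicate 2 (-1.15) or replicate 1 of the combined treatment (-1.04), and the third without BMP4 replicate 1 (-0.17).

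**Figure D3:**
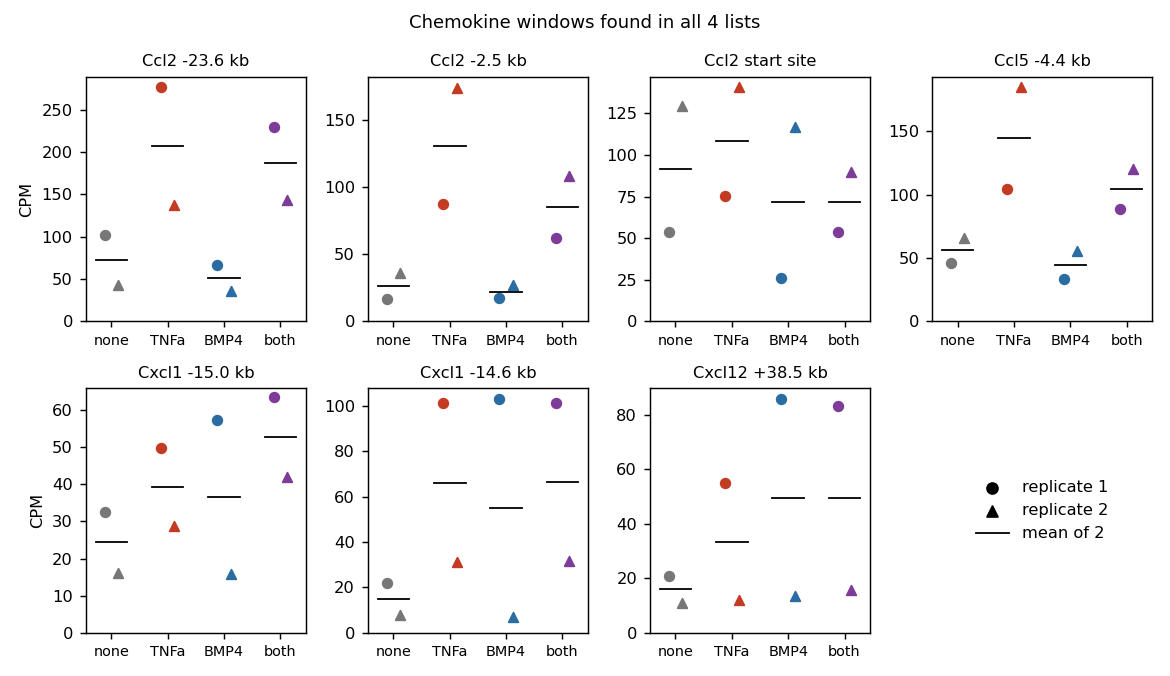
CPM of the 7 chemokine windows found in all 4 lists, by group (both: TNFa and BMP4); circles are replicate 1, triangles replicate 2 and lines the mean of 2. In the Ccl2 23.6 kb, Ccl2 2.5 kb and Ccl5 windows the TNFa and combined libraries sit above all others, while in the Ccl2 start and Cxcl windows the libraries with and without TNFa overlap.

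The order of the 2 replicates was the same in all 4 groups for each of the 7 windows, which 46.2% of all tested windows shared. Replicate 1 was the higher at Ccl2 23.6 kb, both Cxcl1 windows and the Cxcl12 window. Replicate 2 was the higher at Ccl2 2.5 kb, the Ccl2 start and Ccl5.

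To ask what TNFa does at these sites whether or not BMP4 is present, its effect was averaged over both states. This gave positive log2 fold changes at 7 of 7 windows, from 0.30 to 2.03 with a median of 1.26. The 7 windows belong to 4 genes, were read in the same libraries and partly vary alike, so they are not 7 independent results. The sign changed at the Ccl2 start without BMP4 replicate 1 (-0.22) and at Cxcl12 38.5 kb without BMP4 replicate 2 (-0.22). Over all windows the median was -0.0011 and 49.9% were above 0. The highest were Ccl2 2.5 kb at 2.03 ± 0.45, Ccl2 23.6 kb at 1.68 ± 0.46, Cxcl1 14.6 kb at 1.42 ± 0.82 and Ccl5 at 1.26 ± 0.40 (limma, adjusted p = 0.853 for each). With the replicate number as a block, which the labels do not give as a pairing, both Ccl2 windows passed (adjusted p = 0.0154 and 0.0318 in limma) among 119 windows. The Cxcl1 14.6 kb value moved with single libraries, to 0.55 without BMP4 replicate 2 and 2.31 without BMP4 replicate 1. The others were Cxcl1 15 kb at 0.69 ± 0.49, Cxcl12 38.5 kb at 0.40 ± 0.76 and the Ccl2 start at 0.30 ± 0.57 (limma, adjusted p = 0.853, 0.911 and 0.910). Of the 7, 4 reached a log2 fold change of 1 in the average, against 4.29% of all windows. For TNFa against none 4 did (all windows, 3.84%), and for both factors against BMP4 3 did (6.96%). With limma at an adjusted p under 0.05, 0.0% of windows (0 of 14416) passed without that block in any of the 6 comparisons, members included, and 629 (4.36%) had an unadjusted p under 0.05 in the average, 151 (1.05%) for TNFa against none and 230 (1.6%) for both factors against BMP4. Among them were 3, 3 and 2 member windows. These counts moved with single libraries: they ran from 230 (without untreated replicate 2) to 2396 (without BMP4 replicate 1) in the average, from 35 (without untreated replicate 2) to 362 (without untreated replicate 1) for TNFa against none, and from 62 (without replicate 2 of the combined treatment) to 1810 (without BMP4 replicate 1) for both factors against BMP4. In the fits of 2 lists, which hold 17405 to 20141 windows, 0.0% passed as well.

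**Figure D4:**
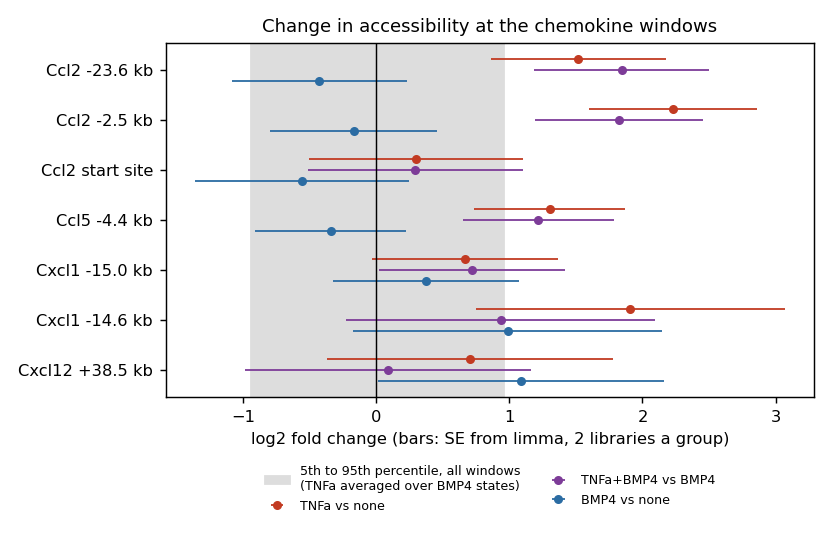
Log2 fold changes of the 7 chemokine windows found in all 4 lists for TNFa against none, both factors against BMP4, and BMP4 against none; bars are standard errors from limma and the grey band holds the 5th to 95th percentile of all tested windows for TNFa averaged over BMP4 states. The Ccl2 23.6 kb, Ccl2 2.5 kb and Ccl5 points for both TNFa comparisons lie to the right of the band, and their points for BMP4 alone lie inside it. Also to the right of the band (which ends at 0.958) lie Cxcl1 14.6 kb for TNFa against none (1.91) and for BMP4 against none (0.988), and Cxcl12 38.5 kb for BMP4 against none (1.09).

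BMP4 was compared with no treatment, and both factors with TNFa, to ask whether BMP4 alters these sites. In the first, 3 of the 7 windows were above 0 with a median of -0.17, and in the second 3 of 7 with a median of -0.10, against medians over all windows of 0.0090 and 0.013. Where TNFa was present, Ccl2 2.5 kb was at -0.58 ± 0.63 and Ccl5 at -0.42 ± 0.57 for both factors against TNFa (limma, adjusted p = 1.00), and at neither did the groups separate. Without TNFa replicate 2 these values were -0.10 and -0.03, and without TNFa replicate 1 they were -1.07 and -0.83. With limma, 28 windows (0.194%) of BMP4 against none and 37 (0.257%) of both factors against TNFa had an unadjusted p under 0.05, no member among them. Leaving out 1 library gave up to 794 (without BMP4 replicate 2) and up to 120 (without TNFa replicate 1). The interaction, which asks whether the TNFa difference itself changes with BMP4, was within its standard error at all 7 windows. The largest was -0.97 ± 1.64 at Cxcl1 14.6 kb (limma, adjusted p = 1.00), and 0 of 14416 windows had an unadjusted p under 0.05, or up to 26 with 1 library left out (BMP4 replicate 1). These comparisons share the TNFa or untreated libraries with those above.

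Of 31 other chemokine genes, 12 had a window, in 27 regions. Of these regions 7 (25.9%) were in TNFa lists only and 5 in lists without TNFa only, against 14.8% and 21.1% of all regions. Those in both TNFa lists only were 9.0 kb after the start of Ccl11, an eosinophil attractant of the same cluster as Ccl2 (54.9 and 15.5 CPM with TNFa, 91.6 and 57.8 with both), at the Ccl9 promoter (17.2 and 25.1, and 14.1 and 18.1) and 14.3 kb after the Ccl9 start (27.5 and 4.78, and 38.1 and 5.66). In 7 tested windows at 6 genes, 7 were above 0 for averaged TNFa, with a median of 0.42, and 0 passed in limma (1 at an unadjusted p under 0.05, against 4.36% of all windows). That one, Ccl11 9.4 kb, was at 0.97 ± 0.41. Neutrophil attractants Cxcl2 and Cxcl3, and Cxcl9 and Cxcl11, which share Cxcr3 with Cxcl10, had no window.

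The chemokine receptors had a median below 0. Of 22 genes, 9 had windows, and 11 of 15 tested windows belonged to Ackr3, an atypical receptor that binds Cxcl12. For averaged TNFa 3 of 15 were above 0, the median was -0.34, and 0 passed in limma (0 at an unadjusted p under 0.05). Of 36 receptor regions, 7 (19.4%, against 14.8% of all regions) were in TNFa lists only, and 3 of those touched a window of the other lists by less than 63 bp. A further 6 were in lists without TNFa only. Ccr2, the receptor of Ccl2 and Ccl7, had no window.

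In the pathway from TNF to NF-kB, 27 of 29 genes had windows. Of 102 regions 30 (29.4%, against 14.8% of all regions) were in TNFa lists only, 2 of them touching a window of the other lists, and 11 were in lists without TNFa only. Of 45 tested windows at 23 genes 27 were above 0 for averaged TNFa, with a median of 0.16, and 0 passed in limma. At an unadjusted p under 0.05 were 4 of the 45 (4.36% of all windows), named after their values were seen. Nfkbia, the inhibitor that NF-kB itself induces, had a window 27.7 kb from its start at 34.3 CPM over the 4 libraries without TNFa and 104 over the 4 with it, a log2 fold change of 1.77 ± 0.55. The other tested Nfkbia windows, 28.1, 26.2 and 45.8 kb from the start, were not among the 4. They were at 1.78 ± 0.86, 0.61 ± 0.36 and 0.40 ± 0.35. A window at the start of Nfkb2, an NF-kB subunit, was at 60.3 and 175 CPM (1.85 ± 0.65). The other tested Nfkb2 window, 0.2 kb from the start, was higher and not among the 4, at 202 and 247 CPM (0.32 ± 0.42). The start of the inhibitor Nfkbie was at 36.8 and 75.7 CPM (1.02 ± 0.38), and a window 220.4 kb from the adaptor gene Tab2 at 65.3 and 23.8 (-1.32 ± 0.41).

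The windows of other genes most like each member's highest window were found by Pearson's r of log2 levels over the 8 libraries, which share depth and replicate differences. For Ccl2 23.6 kb they were windows nearest Gm5627 (0.985) and Llph (0.981), and for Ccl5 windows nearest Dcn (0.969) and Fmn1 (0.964). For Cxcl1 14.6 kb they were 4921511C10Rik and AV051173 (0.994 each), and for Cxcl12 38.5 kb Bmpr2 and Cldn12 (0.995 each). Among the members, Ccl2 2.5 kb and Ccl5 varied most alike (0.983), followed by the neighbouring Cxcl1 windows (0.965), and the Ccl2 start and Cxcl12 38.5 kb ran most opposite (-0.833).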

How the data were processed

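The submitters' processing notes name HOMER 4.11, Bowtie2 2.5.1, Trimmomatic 0.39, deepTools 3.5.1 and Picard 2.25.1, with mm10 as the build. A shift of reads for the transposase is not mentioned in them or in the labels. Per the file headers, peaks of fixed length were called by the authors for each group on pooled replicates against 2 sonicated-DNA libraries, and deposited for each window a log2 fold change over background with its p-value. The deposited per-library values, called tag counts in the header, are log2 values (rlog) that the authors fitted within each list.

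The rlog values were solved for tag counts with 4 constants per list, so that lists share one scale. Of the values, 99.3% (BMP4) to 100% (both factors) lay within 0.1 of an integer. With 1 constant moved by 5%, 28.9% to 43.5% did. Windows overlapping by at least 50% in all 4 lists were matched (14471), and 14416 with at least 10 depth-scaled tags in 2 libraries and 15 in all were tested with limma 3.58.1 (R 4.3.3). The test used a mean-variance trend on log2 of TMM-scaled tags with a pseudocount of 2, all 8 libraries, group as the only term, and two-sided p-values adjusted by Benjamini-Hochberg over all windows. Fold changes on this scale understate the change of low windows. The script was tested on simulated data, which lacked replicate differences of the size seen here. That check therefore does not show how many true changes would pass in these libraries. A window belongs to the nearest gene of the authors' annotation, which does not show that it regulates that gene.

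The 7 members and the gene lists were chosen with earlier results of these data known. Named genes are the members, the listed chemokines, receptors and pathway genes, and the 2 windows most like each member's highest window. Promoter letters are from RefSeq (3 of 7 members matched). Alternatives covered pseudocount, scaling, filter, matching, weights, rlog values, a replicate block and leaving out each library. The depths above limit precision, and no per-sample column was left unmapped.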

Additional observations from a re-analysis of the deposited data

How the results depend on the processing

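At the windows of Ccl2 23.6 kb and 2.5 kb upstream and of Ccl5, the 3 TNFa comparisons stayed above 0 in 162 of 162 alternative values (0.86 to 2.73). These windows were taken because all 4 libraries with TNFa lay above all 4 without, so leaving out a library could hardly change the sign. The count therefore says little about the sign, and the range shows only how far the size moved. Signs did change at other member windows, as given below. None of the 7 member windows had identical coordinates in all 4 lists, so that alternative gave no member value. Scaling by total tags put Cxcl12 38.5 kb for both factors against BMP4 at -0.0498; this scaling moves the median of all windows by -0.148 in that comparison.

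Leaving out each library in turn gave these ranges of log2 fold change where the sign changed. For TNFa against none they were -0.28 to 0.90 at the Ccl2 start and -0.31 to 1.74 at Cxcl12 38.5 kb. For both factors against BMP4 they were -0.74 to 1.34 at the Ccl2 start, -0.13 to 1.58 at Cxcl1 15 kb, -0.81 to 2.71 at Cxcl1 14.6 kb and -1.15 to 1.34 at Cxcl12 38.5 kb. For TNFa averaged over BMP4 states they were -0.22 to 0.82 at the Ccl2 start and -0.22 to 1.02 at Cxcl12 38.5 kb, for BMP4 against none -0.17 to 2.32 at Cxcl12 38.5 kb, and for the interaction -2.71 to 0.80 at Cxcl1 14.6 kb. These fits assume that the library left alone in its group varies like the others.

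The count of member regions in both TNFa lists only is given here with the share of all regions beside it. It was 3 of 18 when windows touching by 1 bp were merged (3.84%) and 3 of 15 when those within 500 bp were (2.93%). Lists of equal length gave 4 of 18 (5.56%). At the stricter limit of 0.001 it was 3 of 12 (7.17%), but with Ccl2 2.5 kb and Cxcl5 in place of Ccl2 28.6 kb and Ccl7 2.5 kb. Counting any window within 50 kb of a member's start, which takes in windows of neighbouring genes, gave 6 of 29 (4.18%).

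Replicate numbers 1 and 2 recur in every group, and the labels do not say that a number marks a shared culture or day. Deviations of same-numbered libraries from their group means correlated at 0.105 to 0.764 across pairs of groups, a pattern of the data and not of the design. Levels did not follow the numbers throughout. Untreated and BMP4 replicate 2 correlated at 0.953. Replicate 2 of the combined treatment correlated at 0.904 with untreated replicate 1 and at 0.569 with untreated replicate 2. Whether the numbers mark pairs was not tested. In a fit with a replicate block, 119 windows passed in limma for TNFa averaged over BMP4 states, against 0 without the block, and 0 in the other 5 comparisons. Of the members, Ccl2 2.5 kb (2.03 ± 0.32, adjusted p = 0.0154) and Ccl2 23.6 kb (1.68 ± 0.31, adjusted p = 0.0318) were among them.

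With 2 libraries per group, 1 library moved many of the values given. Sites absent from a list could not be compared there.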
